A study of Mus musculus with 8 samples.

Results

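Asparagine synthetase and 8 amino acid transporters were followed through the cells of B16F10 melanomas grown in mice with and without host ATF4. The 9 genes were taken by symbol, Asns, Slc7a11, Slc7a5, Slc3a2, Slc7a1, Slc38a2, Slc1a4, Slc1a5 and Slc6a9, and all 9 were found among the 31053 genes of the deposited tables. In GRCm38, the build of the tables, Asns (ENSMUSG00000029752) lies at chr6:7675169-7693254, Slc7a11 (ENSMUSG00000027737) at chr3:49892526-50443614 and Slc7a5 (ENSMUSG00000040010) at chr8:121881150-121907694. Slc3a2 (ENSMUSG00000010095) lies at chr19:8706882-8723369, Slc7a1 (ENSMUSG00000041313) at chr5:148327410-148399904 and Slc38a2 (ENSMUSG00000022462) at chr15:96687392-96699730, each of these 6 on the minus strand. Slc1a4 (ENSMUSG00000020142) lies at chr11:20302180-20332713 on the minus strand, and Slc1a5 (ENSMUSG00000001918) at chr7:16781340-16798274 and Slc6a9 (ENSMUSG00000028542) at chr4:117834506-117875198 on the plus strand. B16F10 is a pigmented mouse melanoma line, and its cells were injected under the skin of the flank of C57BL/6 mice. Single-cell RNA-seq was done on 8 tumours of about 300 mm3, 1 library each. The 4 Atf4wt/wt hosts carried Rosa26::CreERT2 with intact Atf4. The 4 Atf4D/D hosts carried Rosa26::CreERT2 with floxed Atf4, in which exons 2 and 3 lie between loxP sites. Both groups were given tamoxifen, so that the recombinase and the drug are shared and the recombined Atf4 alleles are not. The Cre is expressed from a ubiquitous promoter, so the deletion is not restricted to 1 host cell type, and the injected melanoma cells keep their own Atf4 in either host. The labels give an age of 12 weeks for every mouse, which differs from the age in the study's methods.

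ATF4 is a transcription factor whose translation increases when the kinases of the integrated stress response phosphorylate the initiation factor eIF2α, for example when amino acids run short. It binds C/EBP-ATF response elements and is known for activating genes that make, import and charge amino acids, among them Asns, which makes asparagine from aspartate and glutamine. Of the transporters, Slc7a11 (xCT) exchanges cystine for glutamate, Slc7a5 (LAT1) carries large neutral amino acids, Slc3a2 (4F2hc, CD98) is the heavy chain that brings both to the plasma membrane, Slc7a1 (CAT1) takes up arginine and lysine, Slc38a2 (SNAT2) is a sodium-coupled carrier of small neutral amino acids, Slc1a4 (ASCT1) and Slc1a5 (ASCT2) exchange alanine, serine, cysteine and, for Slc1a5, glutamine, and Slc6a9 (GLYT1) takes up glycine.

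The promoters are shown because several of the genes were higher together in 1 melanoma state while Slc38a2 was not. The matches described here followed that grouping only in part. RefSeq promoter sequences of GRCm38.p6 were present for 7 of the 9 genes (all but Slc7a5 and Slc1a5), in 10 entries. The letters TGATGNAA, a core form of the C/EBP-ATF element, and their reverse complement TTNCATCA were searched on both strands in the 300 bases from 250 before to 50 after each start site, and overlapping matches were each counted. A match lay in the promoters of Asns, Slc7a11 and Slc1a4, all higher in that state. This is 3 of the 10 entries, against 3.97% of all 32851 promoters of that length. Slc6a9 (3 entries) and Slc3a2, both higher in that state, had no match in this window, nor had Slc7a1 (2 entries) or Slc38a2. The Slc3a2 entry starts inside the annotated gene, whose start on the minus strand is at chr19:8723369. The 3 Slc6a9 entries also start inside the annotated gene, which starts at chr4:117834506 on the plus strand, as does 1 of the 2 Slc7a1 entries. The annotated starts of Slc3a2 and Slc6a9 thus lay outside the windows searched. The sequences of the 3 genes with a match and of Slc3a2 and Slc38a2 are given 5′ to 3′ on the gene's strand, each as a stretch that ends at or just after the start site, with matches in capitals. All 5 lie on the minus strand, Asns at chr6:7693210-7693359, Slc7a11 at chr3:50443614-50443763, Slc1a4 at chr11:20332710-20332859, Slc3a2 at chr19:8713898-8714047 and Slc38a2 at chr15:96699729-96699878.
Asns: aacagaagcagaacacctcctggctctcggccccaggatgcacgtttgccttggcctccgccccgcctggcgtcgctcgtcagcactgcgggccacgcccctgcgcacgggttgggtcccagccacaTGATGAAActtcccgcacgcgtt
Slc7a11: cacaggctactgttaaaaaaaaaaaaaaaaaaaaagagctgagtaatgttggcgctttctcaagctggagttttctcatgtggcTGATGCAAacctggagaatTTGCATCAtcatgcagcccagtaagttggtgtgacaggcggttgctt
Slc1a4: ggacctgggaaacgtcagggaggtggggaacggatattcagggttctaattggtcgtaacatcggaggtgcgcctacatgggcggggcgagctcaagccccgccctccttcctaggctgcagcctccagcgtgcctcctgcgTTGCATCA
Slc3a2: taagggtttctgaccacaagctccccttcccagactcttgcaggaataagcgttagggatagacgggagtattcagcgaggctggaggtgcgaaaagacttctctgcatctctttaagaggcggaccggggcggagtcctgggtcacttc
Slc38a2: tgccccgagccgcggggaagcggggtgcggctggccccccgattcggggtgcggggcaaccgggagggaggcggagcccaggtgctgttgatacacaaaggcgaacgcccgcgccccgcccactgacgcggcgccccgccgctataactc
The Asns match began 23 bases before the start site. Slc7a11 had 1 match in each orientation, beginning 66 and 47 bases before it, and the Slc1a4 match began 4 bases before it and ran into the transcript. A match of letters describes the sequence and does not show binding.

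The libraries held 37283598 to 74942137 UMIs each (unique molecular identifiers, that is, counted RNA molecules), and 28411 of 41925 barcodes were kept as cells, 2709 to 5576 per tumour. Of the barcodes of kept cells, 96 occurred in 2 or more libraries. In host cells, Xist and Y-linked transcripts went against the labelled sex in all 4 Atf4wt/wt libraries and matched it in all 4 Atf4D/D libraries, so sex as labelled was used only in an alternative fit. Clusters were named from marker genes. The 10 melanoma-like clusters (23716 cells) had 8 to 10 of 10 melanoma markers, such as Dct, Pmel and Mlana, in at least 50% of their cells. The host cells were 733 CAF-like cells (cancer-associated fibroblasts, led by Col1a1, Col3a1 and Col1a2), 290 TAM-like cells (tumour-associated macrophages), 133 T/NK-like, 40 dendritic-like and 36 endothelial-like cells, and 435 immune cells that were left unnamed. Values are UMIs of a gene per 1000000 UMIs of the class or cluster in 1 tumour (CPM), summed over its cells, so fewer expressing cells and less RNA per cell cannot be told apart.

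The targeted gene separated the genotypes in CAF-like cells and not in melanoma-like cells. In CAF-like cells, Atf4 was at 278, 299, 323 and 290 CPM in the Atf4wt/wt tumours and at 151, 104, 171 and 95.1 CPM in the Atf4D/D tumours. The groups did not overlap, and Atf4 fell by 1.28 on the log2 scale (SE 0.19, adjusted p = 0.0371, edgeR quasi-likelihood test with Benjamini-Hochberg adjustment over 4649 genes). The call held without Atf4D/D tumour 1 or 3 and was lost without any other tumour (adjusted p = 0.0577 to 0.348, with log2 differences of -1.32 to -1.12), and also with sex as labelled in the fit (adjusted p = 0.0963), with the replicate block (adjusted p = 0.0590) and with members kept in the clustering (adjusted p = 0.0525). In TAM-like cells, Atf4 was at 292, 219 and 148 CPM in Atf4wt/wt tumours 1, 3 and 4 and at 89.2, 94.7, 79.6 and 163 CPM in the Atf4D/D tumours, so the groups overlapped, with a log2 difference of -1.07 (SE 0.32, adjusted p = 0.0997). Over all host cells the difference was -1.36 (SE 0.19, adjusted p = 0.113). In melanoma-like cells Atf4 was at 262 to 410 CPM in Atf4wt/wt and 311 to 442 CPM in Atf4D/D hosts, a log2 difference of 0.03 (SE 0.14, adjusted p = 0.962).

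Host cells also held melanoma RNA. All 10 melanoma markers were seen in CAF-like cells and TAM-like cells of both genotypes. Together they reached 1840 to 4800 CPM in CAF-like cells of Atf4wt/wt and 980 to 3955 CPM in those of Atf4D/D tumours, 4943 to 9333 and 907 to 4515 CPM in TAM-like cells, and 1402 to 2040 and 1139 to 1669 CPM in unnamed immune cells, where Mlph was at 0 in the Atf4wt/wt tumours. In T/NK-like cells Mlph and Trpm1 were at 0 in both genotypes, and Sox10 also in Atf4wt/wt. As a percentage of the level in the tumour's own melanoma-like cells, this was 7.30% to 31.6% in CAF-like cells (median 20.5%), 6.76% to 61.5% in TAM-like cells and 8.06% to 14.1% in unnamed immune cells. A share of that size in host cells would carry the genes' UMIs of melanoma cells along in the same proportion, and the number expected from it is given beside the host counts of most members. The part of this RNA in the genotype differences was not tested beyond these values and the fits without marker-positive host cells.

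Among the classes compared, leaving out the 3 unnamed clusters of few UMIs per cell, Asns was highest in melanoma-like cells. It averaged 296 ± 66.1 CPM there (SD, n = 8 tumours), 87.3 ± 69.9 CPM in TAM-like cells (n = 7), 82.3 ± 31.9 CPM in CAF-like cells (n = 8), 42.3 ± 36.98 CPM in unnamed immune cells (n = 8) and 11.5 ± 18.02 CPM in T/NK-like cells (n = 6). Melanoma-like cells exceeded CAF-like and unnamed immune cells in 8 of 8 tumours, TAM-like cells in 7 of 7 and T/NK-like cells in 6 of 6. TAM-like and CAF-like cells differed by less than their SDs. The T/NK-like value rests on 2 UMIs, and 36 endothelial-like cells also held 2 (19.0 CPM, exact Poisson 95% interval 2.31 to 68.8, which covers counting error only). The classes come from clustering of the same cells, so these orders are a description without a test. Against the UMIs expected from melanoma RNA, CAF-like cells held 304 Asns UMIs where 223 were expected, TAM-like cells 95 where 98.0 were expected, unnamed immune cells 21 where 17.3 were expected and T/NK-like cells 2 where 5.46 were expected. In tumours with at least 10 cells of a subcluster, the dividing TAM-like cells held 70 Asns UMIs where 81.4 were expected, and the other TAM-like cells (led by Ccl8, Ms4a7 and Gas6) held 19 where 11.9 were expected.

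Slc7a5 and Slc7a1 were, among the same classes, also highest in melanoma-like cells. Slc7a5 averaged 114 ± 21.1 CPM in melanoma-like cells (n = 8), 38.1 ± 10.5 CPM in CAF-like cells (n = 8), 39.6 ± 24.6 CPM in TAM-like cells (n = 7) and 18.4 ± 15.6 CPM in unnamed immune cells (n = 8). Slc7a1 averaged 118 ± 13.8 CPM in melanoma-like cells against 41.6 ± 11.5, 47.3 ± 24.0 and 30.1 ± 30.0 CPM in the same host classes. Both were higher in melanoma-like cells than in each of these classes in every tumour compared. In TAM-like cells, 40 Slc7a5 UMIs were counted where 38.3 were expected from melanoma RNA and 42 Slc7a1 UMIs where 38.7 were expected. In CAF-like cells it was 152 against 89.2 and 157 against 94.5, and in unnamed immune cells 11 against 6.73 and 19 against 6.95. Slc6a9 was low everywhere, at 9.39 ± 3.11 CPM in melanoma-like and 3.79 ± 3.74 CPM in CAF-like cells, and Slc1a4 was at 17.3 ± 4.11 and 16.5 ± 14.1 CPM. Slc1a4 and Slc6a9 had 0 UMIs in T/NK-like cells of each tumour, which allows up to 91.0 to 199 CPM in the 6 tumours with 10 such cells or more (3 counts). The CAF-like Slc1a4 mean rests on 44 UMIs, where 13.1 were expected from melanoma RNA.

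The heavy chain Slc3a2 and the carrier Slc38a2 were as high in several immune classes as in melanoma-like cells. Slc3a2 averaged 363 ± 66.9 CPM in melanoma-like cells, 335 ± 44.3 CPM in TAM-like cells, 342 ± 153 CPM in T/NK-like cells and 424 ± 82.7 CPM in unnamed immune cells, each of which differed from melanoma-like cells by less than the larger SD of the pair, and 181 ± 34.5 CPM in CAF-like cells, below melanoma-like cells in 8 of 8 tumours. Slc38a2 averaged 233 ± 19.9 CPM in melanoma-like, 184 ± 25.5 CPM in CAF-like, 149 ± 54.4 CPM in TAM-like, 254 ± 116 CPM in T/NK-like and 234 ± 125 CPM in unnamed immune cells. These host counts were well above those expected from melanoma RNA. T/NK-like cells held 57 Slc3a2 UMIs where 6.65 were expected, and unnamed immune cells held 240 Slc3a2 UMIs where 21.9 were expected and 149 Slc38a2 UMIs where 13.4 were expected. Pooled endothelial-like cells had 36 Slc38a2 UMIs (343 CPM, exact Poisson 95% interval 240 to 474).

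Slc7a11, the cystine transporter, averaged higher in unnamed immune than in melanoma-like cells. It was at 76.0 ± 33.7 CPM in unnamed immune cells (n = 8), 52.2 ± 21.2 CPM in melanoma-like cells (n = 8), 32.4 ± 30.8 CPM in TAM-like cells (n = 7) and 19.1 ± 15.5 CPM in CAF-like cells (n = 8). The unnamed immune cells were above the melanoma-like cells in 6 of 8 tumours, by less than the SD between tumours. They held 49 Slc7a11 UMIs where 2.98 were expected from melanoma RNA, against 70 where 38.0 were expected in CAF-like and 34 where 19.6 were expected in TAM-like cells. For Slc1a5, the glutamine carrier, melanoma-like cells (69.6 ± 16.1 CPM) and CAF-like cells (62.7 ± 14.4 CPM) differed by less than 1 SD, and CAF-like cells held 227 UMIs where 54.3 were expected. Across the 9 members, the ratio of counted to expected UMIs in CAF-like cells ranged from 1.37 for Asns to 4.18 for Slc1a5.

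**Figure D1:**
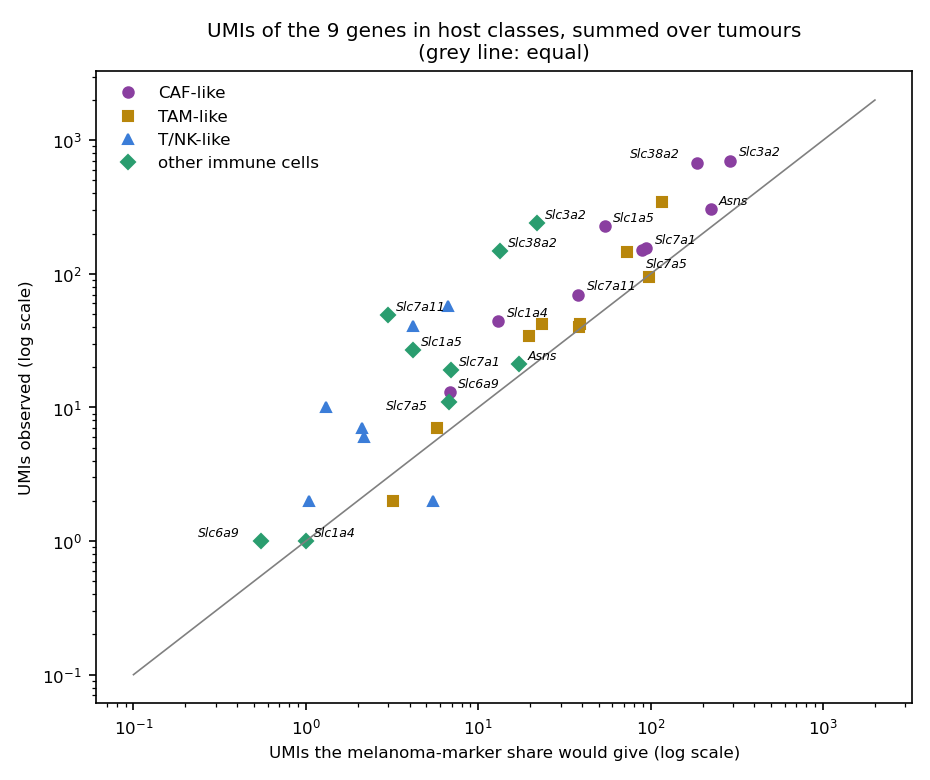
UMIs of each member counted in a host class (vertical axis, log scale) against the UMIs expected from the melanoma RNA in that class (horizontal axis, log scale), 1 point per member and class, with a grey line where both are equal. The classes are CAF-like, TAM-like, T/NK-like and unnamed immune cells (labelled other immune cells), and members with a count of 0 are not drawn. Asns lies near the line in CAF-like and unnamed immune cells, whereas Slc3a2 and Slc38a2 lie above it in both.

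Within the tumour cells, 1 melanoma state stood out. Cluster 0 (3709 of the 23716 melanoma-like cells) was led by Grb14, Akr1b7, Angptl6, Nupr1 and Isg20, and was picked out because its Asns level was the highest, so its Asns level is a description. The members were left out of the genes used for clustering, but the other genes of the same cells were used, and no test was made between clusters. Asns in cluster 0 was at 484, 592, 541 and 586 CPM in the Atf4wt/wt tumours and at 500, 465, 542 and 586 CPM in the Atf4D/D tumours. In the other melanoma-like cells of the same tumours it was at 220, 264, 295 and 364 CPM and at 177, 307, 246 and 188 CPM. Cluster 0 was higher in 8 of 8 tumours and the values did not overlap. Its mean of 537 ± 49.7 CPM was followed by cluster 11 (Tmod1 and Lgals3 among its leading genes), at 351 ± 65.8 CPM, a gap of 186 CPM. From there down to cluster 1 (Cenpa, Ccnb2, Cdkn3, genes of dividing cells), at 191 ± 64.1 CPM, no neighbouring clusters differed by more than their SD between tumours.

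**Figure D2:**
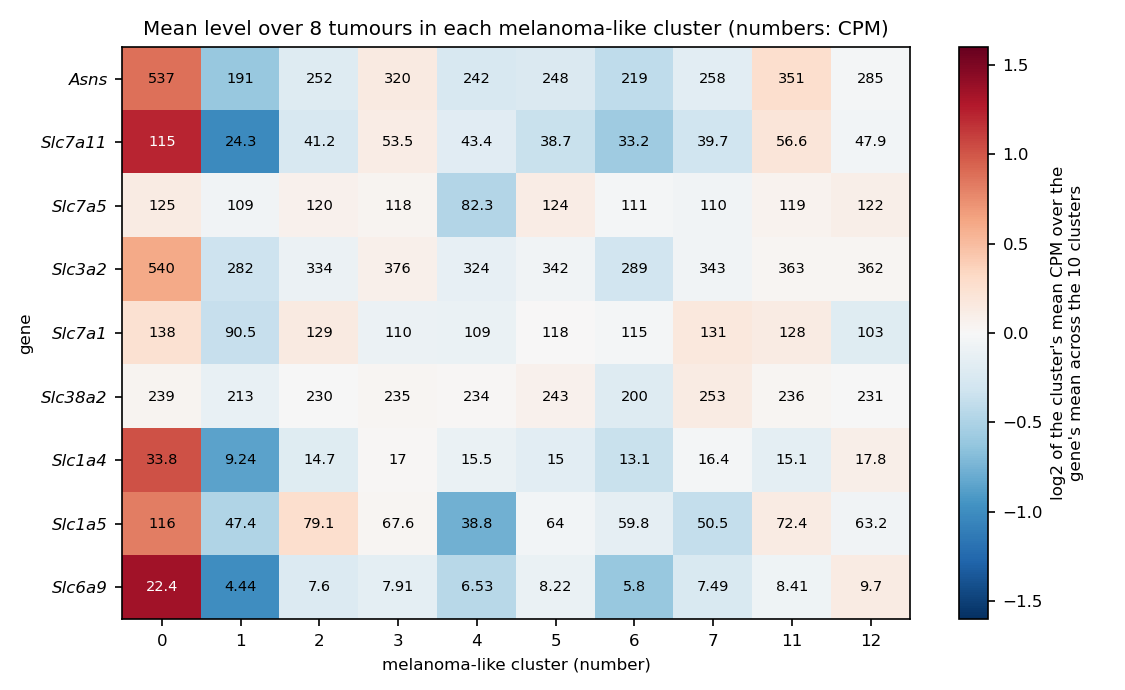
Heat map of the members (vertical axis) in the 10 melanoma-like clusters (horizontal axis), with the mean CPM over 8 tumours printed in each cell and its log2 ratio to the gene's mean across the clusters as colour. Asns, Slc7a11, Slc3a2, Slc1a4, Slc1a5 and Slc6a9 are darkest red in cluster 0, whereas Slc38a2 stays pale, between 200 and 253 CPM, and Slc7a5 is lowest in cluster 4.

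Cluster 0 was also the highest cluster, by more than the SD between tumours and in 8 of 8 tumours, for Slc7a11 (115 ± 24.3 CPM, next 56.6), Slc3a2 (540 ± 76.5 CPM, next 376), Slc1a4 (33.8 ± 4.99 CPM, next 17.8), Slc1a5 (116 ± 13.5 CPM, next 79.1), Slc6a9 (22.4 ± 2.83 CPM, next 9.70) and Atf4 (582 ± 90.8 CPM, next 391). The remaining 3 transporters behaved otherwise. Slc7a1 in cluster 0 (138 ± 13.1 CPM) was within the SD of the next cluster (131). Slc7a5 was at 125 ± 16.004 CPM in cluster 0 and 124 ± 26.1 CPM in cluster 5 (Nusap1, Ube2c, Prc1), and only its lowest level, 82.3 ± 8.04 CPM in cluster 4 (Espn, Nppb, Selenbp1, Car9), was set apart, by 27.1 CPM and in 8 of 8 tumours. Slc38a2 ranged from 200 CPM in cluster 6 (Ung, Cdc6, Cdt1) to 253 CPM in cluster 7 (Cenpf, Prc1, Espn), with no neighbouring gap larger than the SD. Between the highest and the lowest cluster of a tumour, Slc38a2 differed 1.35 ± 0.08-fold and Asns 3.26 ± 0.94-fold (SD, n = 8).

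Expressed as the log2 ratio of cluster 0 to the other melanoma-like cells of the same tumour, with 1 CPM added to each, Slc6a9 was at 1.56 ± 0.52, Slc7a11 at 1.53 ± 0.35, Slc1a4 at 1.18 ± 0.38, Asns at 1.09 ± 0.36, Slc1a5 at 0.92 ± 0.28 and Slc3a2 at 0.70 ± 0.12 (SD, n = 8). These 6 and Slc7a1 (0.27 ± 0.13) were above 0 in 8 of 8 tumours, against 5 of 8 for Slc7a5 (0.15 ± 0.21) and 6 of 8 for Slc38a2 (0.05 ± 0.09). Atf4 was at 0.81 ± 0.17. Thus 7 of 9 members were higher in cluster 0 in every tumour, with a median of 0.92 over the 9, whereas 1705 of 7743 genes at 10 CPM or more were higher in every tumour and 2949 lower, with a median of -0.10. The members' position is in part fixed by having chosen the cluster on Asns.

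**Figure D3:**
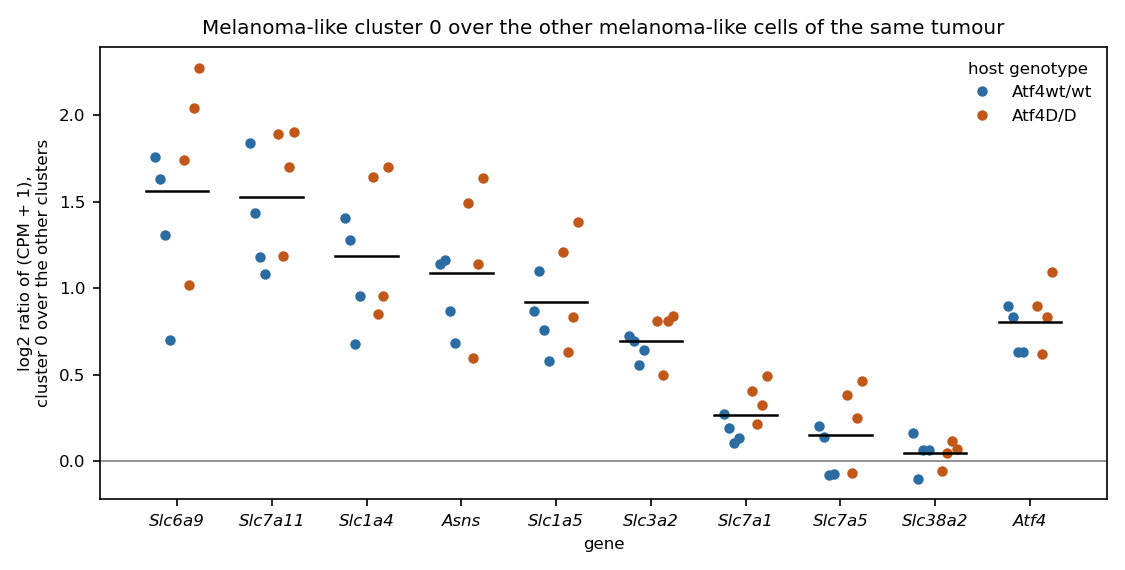
Log2 ratio of the level in cluster 0 to that in the other melanoma-like cells of the same tumour (vertical axis) for each member and Atf4, points for the 8 tumours coloured by host genotype and a line for the mean. The values of Slc6a9, Slc7a11, Slc1a4, Asns, Slc1a5 and Slc3a2 are above 0 in each tumour, those of Slc38a2 lie about 0.

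Other genes of amino acid supply were placed the same way, from lists chosen with these results known. Only the members had been left out of the clustering genes, and Nupr1 and Cth are among the leading genes of cluster 0. The position of the lists is therefore in part fixed by how the cluster was made and chosen. Of 20 measured ATF4 and stress-response genes, 19 were higher in cluster 0 in all 8 tumours (median log2 ratio 1.498), among them Fgf21 (4.33), Nupr1 (2.28) and Cth, of the transsulphuration pathway (2.12). Of 20 cytosolic aminoacyl-tRNA synthetases, which charge tRNAs, 12 were higher and 6 lower in every tumour (median 0.34), from Sars at 0.96 to Mars at -0.55. Of 11 genes of serine, glycine and proline synthesis, 7 were higher and 2 lower (median 0.41), with Aldh1l2 at 1.94, Pycr1 at 1.90 and Shmt1 at -2.11. The enzymes next to Asns in the use of aspartate and glutamine were divided: 3 of 10 were higher and 4 lower (median 0.05), with Gpt2 at 0.90 and Gfpt1 at 0.86 but Cad at -0.88, Got2 at -0.81 and Glul at -0.77. Of 9 other plasma membrane amino acid transporters measured at 10 CPM or more, 3 were higher and 2 lower (median -0.00), with Slc38a7 at 0.85 and Slc6a6, which carries taurine, at -0.88.

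Cluster 0 held 11.8%, 14.8%, 22.9% and 24.0% of the melanoma-like cells in the Atf4wt/wt tumours and 15.2%, 17.1%, 13.4% and 11.2% in the Atf4D/D tumours. The groups overlapped. It contributed 14.5% of all melanoma-like UMIs on average but 34.8% of the Slc6a9, 32.5% of the Slc7a11, 28.1% of the Slc1a4 and 26.1% of the Asns UMIs, compared with 14.9% of the Slc38a2 UMIs. The spread between tumours was smaller inside the state than over all melanoma-like cells for Asns, with a coefficient of variation of 9.25% in cluster 0 and 22.3% over all (n = 8), and for Slc7a11, with 21.1% and 40.6%. For Slc38a2 it was 9.92% and 8.58%. A smaller spread was not particular to cluster 0. For Asns it was 14.0% in cluster 4, 20.7% in cluster 6, 18.9% in cluster 7 and 18.7% in cluster 11. Clusters 1, 2, 3, 5 and 12 were above the value over all. The same clusters lay on each side for Slc7a11, with 21.8% in cluster 4.

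The genes whose levels followed Asns most closely over the melanoma-like states were sought over 80 sums of 1 cluster in 1 tumour, centred within each tumour, among 7840 genes. The highest Pearson correlations were with Nars (0.93), Lars (0.92), Nupr1 (0.92), Atf5 (0.92), Gars (0.92), Ghitm (0.92), Pck2 (0.92), Slc3a2 (0.92), Eprs (0.91) and Sars (0.91). Of these, 5 are aminoacyl-tRNA synthetases, including Nars, which charges asparagine, and 1 is a member. Slc7a11 followed at rank 17 (0.90), Slc1a4 at rank 69 (0.79), Slc1a5 at rank 155 (0.72), Slc7a1 at rank 362 (0.62), Slc7a5 at rank 903 (0.46) and Slc38a2 at rank 1109 (0.40), with Atf4 at rank 56 (0.80). The best partner of Slc7a11 was Ghitm (0.91), of Slc3a2 Nupr1 (0.93), of Slc1a4 Nupr1 (0.82), of Slc1a5 Psph (0.90), of Slc7a1 Mthfd2 (0.85), of Slc7a5 Phgdh (0.73) and of Slc38a2 Rbm39 (0.67). The light chain Slc7a5 and its heavy chain Slc3a2 were at 0.41, and the light chain Slc7a11 and Slc3a2 at 0.87. The 80 sums share tumours, depth and libraries, so these are descriptions. Slc6a9 was below a mean of 10 CPM and was not compared.

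The host genotype was compared next. In melanoma-like cells, 0 of 9 members passed an adjusted p of 0.05, against 0.0319% of the 12555 genes tested (4 genes, S100a6, Pde10a, Gm29084 and Plat), and 0 passed by DESeq2. At an unadjusted p of 0.05 there was 1 of 9, Asns, against 11.3% of all genes. Asns was at 245, 307, 345 and 412 CPM in Atf4wt/wt and at 221, 332, 281 and 227 CPM in Atf4D/D hosts. The Atf4wt/wt values reach higher and the groups overlap, with a log2 difference of -0.35 (SE 0.16, adjusted p = 0.439, edgeR quasi-likelihood test). With any 1 of Atf4wt/wt tumours 2, 3 and 4 or Atf4D/D tumours 1, 3 and 4 left out, no member had an unadjusted p under 0.05, and the Asns difference ranged from -0.47 to -0.22 over the 8 such fits.

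The other 8 members differed less. Slc7a11 was at 31.0, 43.3, 65.2 and 76.3 CPM in Atf4wt/wt and at 38.6, 87.2, 43.4 and 32.6 CPM in Atf4D/D hosts, with a log2 difference of -0.13 (SE 0.32, adjusted p = 0.906). The values interleaved, and the spread within a genotype was over 2-fold. Slc3a2 was at 305, 344, 368 and 516 CPM against 326, 383, 349 and 316 CPM (-0.20, SE 0.14, adjusted p = 0.606), and Slc6a9 at 6.24, 8.27, 11.5 and 15.0 CPM against 7.41, 11.9, 8.75 and 6.15 CPM (-0.28, SE 0.26, adjusted p = 0.718). The log2 differences of Slc7a5, Slc7a1, Slc38a2, Slc1a4 and Slc1a5 lay between -0.11 and -0.02, with SEs of 0.08 to 0.20. All 9 estimates were below 0, with a median of -0.11 against -0.00 for all genes tested. For none of the 9 did the genotypes' levels separate, whereas 5.38% of all genes were higher without overlap in Atf4D/D hosts and 1.25% lower.

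**Figure D4:**
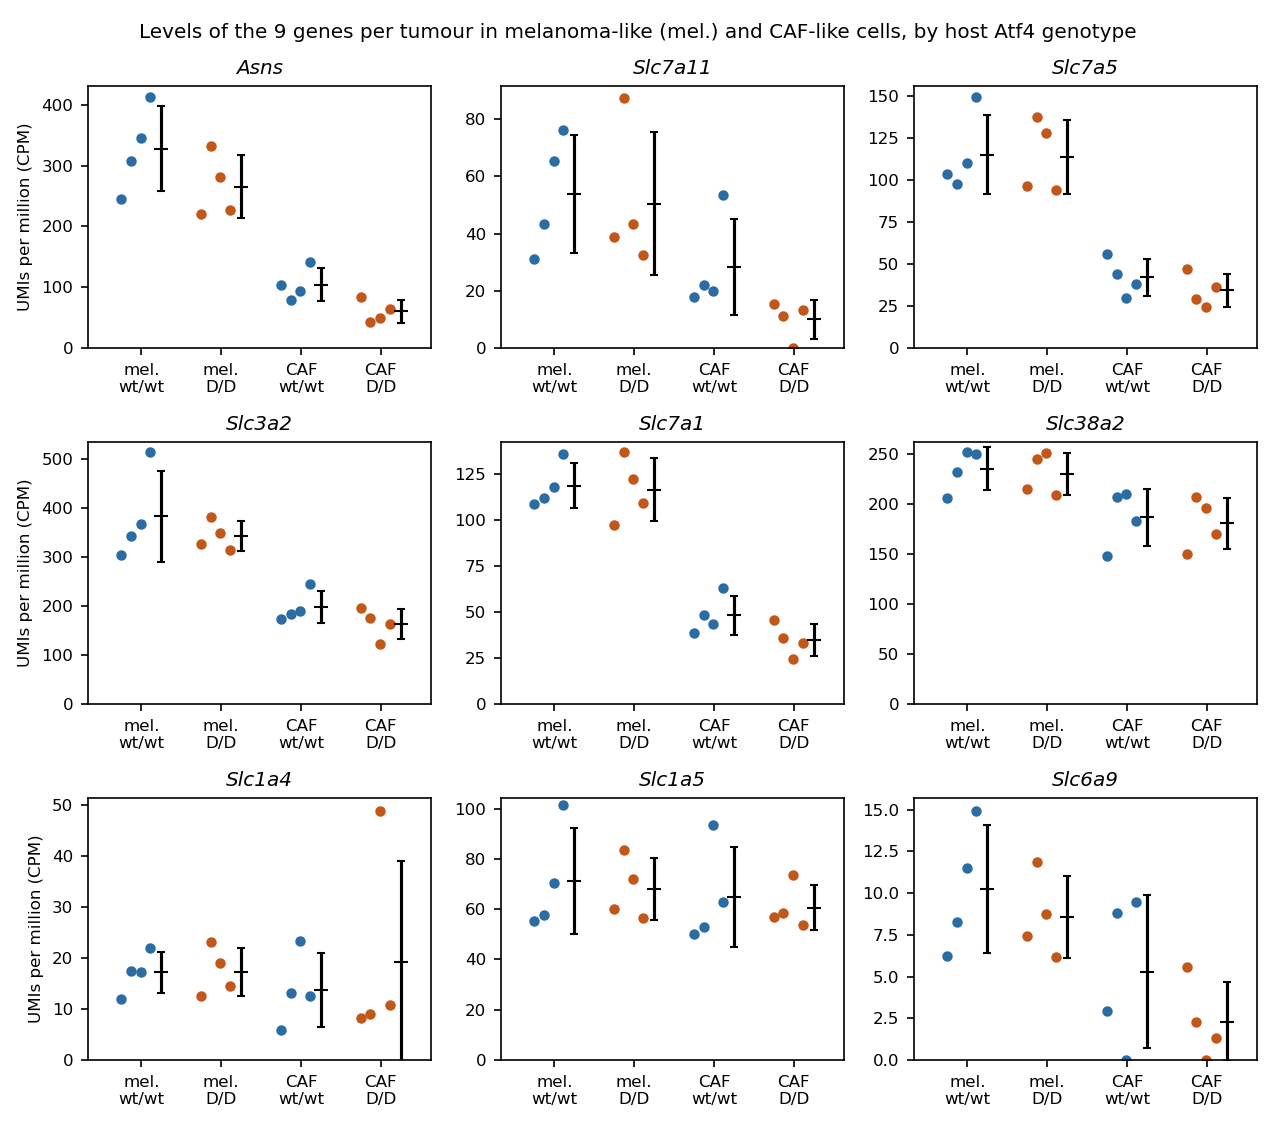
Level of each member (CPM, vertical axis, 1 panel per gene) in melanoma-like and CAF-like cells by host genotype (horizontal axis), 1 point per tumour, with the mean and SD beside the points (bars end at 0 where the SD reaches below it). The genotypes overlap in melanoma-like cells in all 9 panels, and Asns is lower in CAF-like than in melanoma-like cells.

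Inside the melanoma states, 0 of 88 member-by-cluster tests passed the threshold (edgeR quasi-likelihood, adjusted over all genes of a cluster; Slc6a9 passed the filter in 8 of the 10 clusters), and 7 had an unadjusted p under 0.05, against 8.35% of the 94280 tests over all genes and clusters. Of the 7, 4 were of Asns, 2 of Slc7a11 and 1 of Slc3a2. DESeq2 was not run by cluster. Among all genes, 0.0481% passed in cluster 0, 0.0992% in cluster 1, 0.0383% in cluster 2, 0.0302% in cluster 3, 0.0695% in cluster 4, 0% in cluster 5, 0.155% in cluster 6, 0.0969% in cluster 7, 0.168% in cluster 11 and 0.371% in cluster 12. The Asns estimate was below 0 in each of the 10 clusters, from -0.49 (SE 0.19, adjusted p = 0.453) in cluster 2 to -0.05 (SE 0.13, adjusted p = 0.973) in cluster 11. In cluster 7 it was -0.38 (SE 0.11, adjusted p = 0.194), and in cluster 0, where Asns was highest, -0.12 (SE 0.09, adjusted p = 0.714). The Slc7a11 estimate was below 0 in 5 of the 10 clusters and ranged from -0.47 (SE 0.18, adjusted p = 0.465) in cluster 7 to 0.61 (SE 0.34, adjusted p = 0.644) in cluster 12. Clusters of 1 tumour share their library and are not replicates of one another.

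In CAF-like cells, 6 of the 9 members passed the filter on low counts, and 0 of the 6 passed the threshold, against 0.043% of 4649 genes (Atf4 and Cck); 0 passed by DESeq2. At an unadjusted p of 0.05 there was 1 of 6, Asns, against 6.43% of all genes. Asns was at 103, 79.1, 93.3 and 142 CPM in Atf4wt/wt and at 84.7, 42.8, 49.0 and 64.3 CPM in Atf4D/D hosts. The highest Atf4D/D tumour lay above the lowest Atf4wt/wt tumour, so the groups overlapped, and the log2 difference was -0.67 (SE 0.25, adjusted p = 0.699). The value of 49.0 CPM rests on 2 UMIs in 10 cells. Slc7a5, Slc3a2, Slc7a1, Slc38a2 and Slc1a5 were between -0.33 and -0.05, with SEs of 0.18 to 0.27 and adjusted p-values of at least 0.922.

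CAF-like cells without melanoma markers gave a wider separation of Asns. With cells above 20% of the melanoma-like median of marker UMIs left out, 222 Atf4wt/wt and 417 Atf4D/D cells remained, with 66 and 58 Asns UMIs. Asns was then at 57.1, 62.1, 73.4 and 101 CPM in Atf4wt/wt (73.5 ± 19.7, SD, n = 4) and at 29.1, 20.1, 49.0 and 30.4 CPM in Atf4D/D hosts (32.1 ± 12.1, SD, n = 4). All Atf4wt/wt values were above all Atf4D/D values, as for 2.22% of the 3698 genes tested in these cells, and the log2 difference was -1.33 (adjusted p = 0.142). In these cells the 124 Asns UMIs compare with 35.2 expected from the remaining melanoma RNA, which was 3.31% to 7.30%. The cells were kept for having few marker UMIs, and the same markers gave the expected count. It can therefore be too low. Over all CAF-like cells, marker-positive cells included, the Asns log2 difference was -0.67 with the mitochondrial limit of 7.5%. With a limit of 5% it was -1.06 (adjusted p = 0.0789, edgeR quasi-likelihood test).

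Slc7a11 was too low in CAF-like cells for the test across genes. It was at 17.7, 21.98, 19.998 and 53.6 CPM in Atf4wt/wt and at 15.3, 11.3, 0 and 13.4 CPM in Atf4D/D hosts, on 34 and 36 UMIs, and a count of 0 in the third Atf4D/D tumour allows up to 73.5 CPM. The listed levels do not overlap, which held for 1.35% of the 15446 genes with at least 1 UMI in CAF-like cells (lower in Atf4D/D). Among the 4649 genes that passed the filter it was 2.37%. In TAM-like cells Slc7a11 was at 89.8, 41.0 and 43.5 CPM in Atf4wt/wt tumours 1, 3 and 4 and at 29.7, 22.4, 0 and 0 CPM in Atf4D/D tumours, on 23 and 11 UMIs, again without overlap, which held for 4.04% of 12678 genes. Among the 2083 genes that passed the filter in TAM-like cells it was 9.03%. The 2 counts of 0 allow up to 47.7 and 37.5 CPM, the first of which is above the lowest Atf4wt/wt value. Of these 34 UMIs, 29 came from a subcluster of dividing cells whose melanoma RNA was 58.0% to 76.0%, and the share of melanoma RNA in TAM-like cells was 31.8% to 61.5% in Atf4wt/wt and 6.76% to 27.2% in Atf4D/D tumours. In unnamed immune cells Asns was at 66.3, 55.0, 73.5 and 98.7 CPM in Atf4wt/wt and at 0, 34.4, 0 and 10.1 CPM in Atf4D/D tumours, on 17 and 4 UMIs, without overlap, against 0.852% of 11616 genes. The 2 counts of 0 allow up to 45.2 and 114 CPM. From melanoma RNA there (10.3% to 14.1% and 8.06% to 10.1%), 9.39 and 7.86 UMIs were expected. The share among genes that pass the filter was not taken in unnamed immune cells. They join 2 subclusters, led by Chil3, Hp and Vcan and by Arg1, Mmp12 and Rsad2. These held 13 and 29, 15 and 14, 11 and 10, and 83 and 9 cells in the Atf4wt/wt tumours. In the Atf4D/D tumours they held 14 and 25, 14 and 24, 4 and 10, and 96 and 64. The part of this mix was not tested.

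Over all host cells, 7 of the 9 members passed the filter and 0 of the 7 passed the threshold, against 0% of 6965 genes; by DESeq2 it was 0 of the 7. At an unadjusted p of 0.05 there were 3 of 7, against 5.07% of all genes. These were Asns (-0.76, SE 0.29), Slc7a11 (-0.77, SE 0.29) and Slc7a1 (-0.53, SE 0.23), each with an adjusted p of 0.965 by the edgeR quasi-likelihood test. Asns was at 104, 72.6, 78.0 and 134 CPM in Atf4wt/wt and at 73.4, 57.3, 14.0 and 56.0 CPM in Atf4D/D hosts. The lowest Atf4wt/wt and the highest Atf4D/D values cross by about 1 CPM. The value of 14.0 CPM rests on 2 UMIs in 51 cells. The mix of host classes differed between tumours. CAF-like cells were 71 of 190, 51 of 87, 64 of 154 and 70 of 222 host cells in the Atf4wt/wt tumours. In the Atf4D/D tumours they were 126 of 210, 97 of 285, 10 of 51 and 244 of 468. The part of this mix in the differences was not tested. Slc1a5 (-0.37, SE 0.19), Slc7a5 (-0.32, SE 0.26), Slc38a2 (-0.26, SE 0.16) and Slc3a2 (-0.04, SE 0.16) had estimates nearer to 0. In TAM-like cells 2 of the 9 members passed the filter and 0 of the 2 the threshold, against 0.576% of 2083 genes (0 by DESeq2 and 0 at an unadjusted p of 0.05), with Slc38a2 at -0.53 (SE 0.31, adjusted p = 0.381) and Slc3a2 at 0.02 (SE 0.21, adjusted p = 0.980).

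A fit over both classes tested whether the genotype difference in CAF-like cells departed from that in melanoma-like cells. None of the 6 members passed, against 0% of 4448 genes (0 of the 6 at an unadjusted p of 0.05, and 0 by DESeq2). For Asns the CAF-like minus melanoma-like difference was -0.26 (SE 0.29, adjusted p = 0.972), and for Atf4 it was -1.29 (SE 0.22, adjusted p = 0.125). Without marker-positive host cells the value for Asns was -0.91 (adjusted p = 0.472), with the mitochondrial limit of 5% it was -0.68 (adjusted p = 0.449), and without Atf4D/D tumour 2 it was 0.03 (adjusted p = 1.000).

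**Figure D5:**
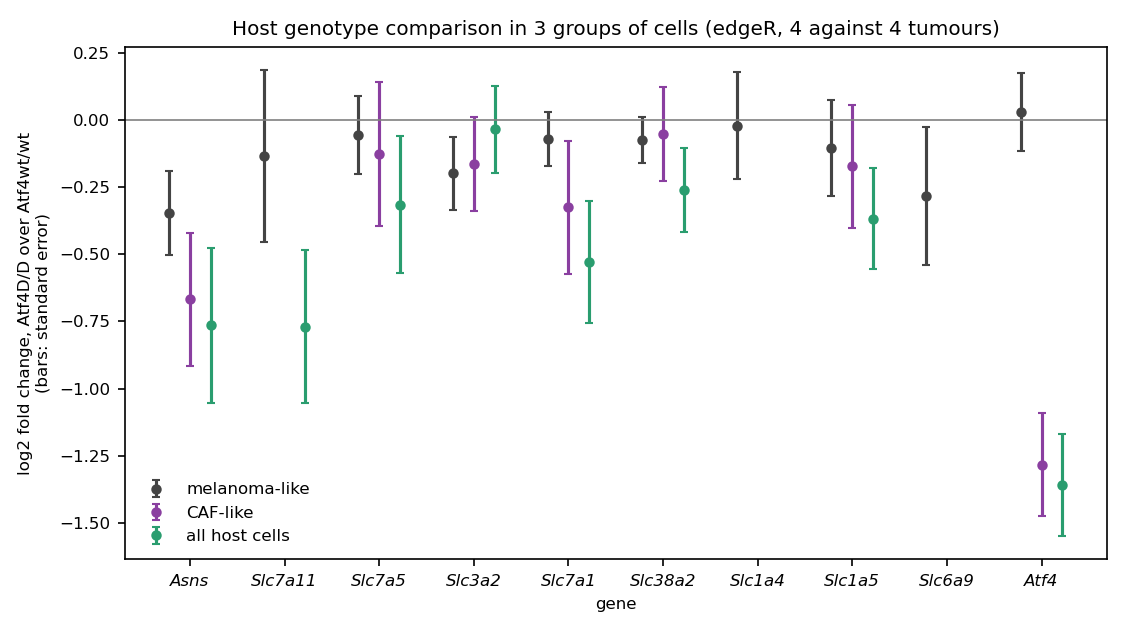
Log2 fold change of Atf4D/D over Atf4wt/wt (vertical axis) of the members and Atf4 (horizontal axis) in melanoma-like, CAF-like and all host cells, where tested, points for the edgeR estimate and bars for 1 SE. The Asns estimates are all below 0 and Atf4 is at -1.28 in CAF-like but 0.03 in melanoma-like cells.

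Of the lists beside the members, only Atf4 itself passed the threshold in a genotype comparison, in CAF-like cells. The 20 cytosolic aminoacyl-tRNA synthetases had a median log2 difference of -0.06 in melanoma-like cells (20 tested), -0.19 in CAF-like cells (17 tested), -0.73 in TAM-like cells (6 tested) and -0.32 in all host cells (20 tested), and the genes of serine, glycine and proline synthesis -0.08, -0.33 and -0.39 in melanoma-like, CAF-like and all host cells (11, 8 and 9 tested). The ATF4 and stress-response genes had medians of -0.11, -0.05, -0.06 and 0.03 in melanoma-like, CAF-like, TAM-like and all host cells (21, 14, 11 and 18 tested). At an unadjusted p of 0.05, 3 of the 14 were higher and 3 lower in CAF-like cells, and 2 of the 18 higher and 2 lower in all host cells. The enzymes of asparagine, aspartate and glutamine had medians of -0.04, 0.09, -0.09 and 0.12 in the same order (12, 7, 4 and 9 tested). The medians of all genes tested lay between -0.03 and 0.01. At an unadjusted p of 0.05, 5 of the 20 synthetases were lower in all host cells (Cars, Gars, Nars, Sars and Wars), against 2.21% of all genes, and none was higher. At the same threshold, 4 of 20 were lower in melanoma-like, 4 of 17 in CAF-like and 3 of 6 in TAM-like cells. None was higher there. Over all genes, 11.3%, 6.43% and 17.9% had such a p in either direction in these 3 groups of cells. The share of melanoma RNA in TAM-like cells, given above, was higher in each Atf4wt/wt tumour compared than in each Atf4D/D tumour. The part of this RNA in the host values of the lists was not tested. The other amino acid transporters had medians of -0.00 in melanoma-like cells (16 of 35 tested) and 0.20 in all host cells (7 tested), with 0 at an unadjusted p of 0.05 in either.

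Across the 8 tumours, the members' levels in melanoma-like cells were also set against that of Atf4 in the same cells. Pearson's r over log2 CPM was positive for all 9, from 0.58 for Slc3a2 to 0.90 for Slc1a4. The share of all genes with such an r to Atf4 was not taken. These values are therefore not shown to be particular to the members. Slc1a4 alone passed after adjustment over the 9 relations (r = 0.903, exact permutation p = 0.00193, adjusted p = 0.0174), its Spearman's rho was 0.810 (exact permutation p = 0.0218, adjusted p = 0.196), and r was 0.769 without the 2 tumours farthest from the median of Atf4. Asns had r = 0.651 (exact permutation p = 0.0799, adjusted p = 0.120) and rho = 0.452 (exact permutation p = 0.267, adjusted p = 0.267), with r = 0.517 without those 2 tumours. Slc38a2 had r = 0.794 (exact permutation p = 0.0182, adjusted p = 0.0818), with rho = 0.571 (exact permutation p = 0.151, adjusted p = 0.267) and r = 0.616 without those 2 tumours. Without Atf4wt/wt tumour 1, 3 or 4 or Atf4D/D tumour 1, 2 or 4 the adjusted p of Slc1a4 was 0.0589 to 0.139, with r of 0.873 to 0.913. With each cluster given equal weight, none of the 9 passed and Slc1a4 was at r = 0.834 (adjusted p = 0.0940). The genotypes hold 4 tumours each, too few for a value within each.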

How the data were processed

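Per the labels, dissociated tumours were run on the 10x Genomics 3′ V3 kit (the study's methods name V2) and aligned to GRCm38 with Cell Ranger 3.1.0 (the methods also name other versions). The tables deposited by the authors hold UMI counts that were not normalized, and these were used as they stand. The authors' cell labels were not used here.

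Barcodes with 200 to 5000 genes and no more than 7.5% of counts from mitochondrial genes were used, for genes seen in 3 cells or more. Each cell was scaled to 10000 counts in Seurat 5.3.0 (R 4.3.3), the genotypes were integrated on 2000 variable genes (the members left out, 2 of which were among them) with 20 principal components, and the resolution of 0.6 gave 17 clusters. The cluster highest in mitochondrial counts was left out, of which 230 of 241 cells came from Atf4wt/wt tumour 4. Immune cells were clustered again at 0.3. Clusters were named from marker lists. Clusters 8, 9 and 13, of few UMIs per cell, stayed unnamed. No doublets were removed.

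Counts were summed per tumour and class (at least 10 cells; 1 Atf4wt/wt tumour had too few TAM-like cells) and tested with edgeR 4.0.16 (filterByExpr, TMM, quasi-likelihood, Atf4D/D minus Atf4wt/wt), with p-values adjusted over all genes tested by Benjamini-Hochberg and a threshold of 0.05. DESeq2 1.42.0 was an alternative. Melanoma-like sums held 24162613 to 49012475 UMIs, CAF-like sums 40826 to 1493945 and TAM-like sums 62839 to 401146. On simulated counts, changes of 1 on the log2 scale were called in 80% to 82.1% of genes in CAF-like and 86% to 93.6% in melanoma-like sums, and changes of 2 in 100%. The simulated CAF-like set held 35 to 50 changed genes per size and direction among 4330, whereas 2 of 4649 genes passed in the data. More changed genes make the adjusted threshold easier to pass. These shares therefore do not show how often a change in a member would be called. The labels call the replicates biological, and between 2 of a genotype the chi-square per gene lay between 11.5 and 45.6 over 12 pairs, above counting noise. Replicate numbers did not pair the tumours.

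The expected UMIs of a host class are its summed melanoma markers relative to the melanoma-like cells of the same tumour, times the member's level there and the class's UMIs. The 9 members, the gene lists and the markers were chosen with earlier results of these data known. Named genes are the members, Atf4, the genes most like each member, the leading genes of a cluster, list genes that passed a threshold and, per list, those farthest apart between cluster 0 and the rest. Genes named beside a count over all genes were named after their values were seen.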

Additional observations from a re-analysis of the deposited data

Results flagged for a closer look

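In 89 groups of 4 tumours or more tested over the members and Atf4, 5 (5.62%) had 1 tumour set far from the others, and chance flags about 1 in 20 groups. In CAF-like cells of Atf4wt/wt hosts, Slc7a11 was at 53.6 CPM in tumour 4 (17 UMIs) and at 17.7 to 21.98 CPM in the others. In CAF-like cells of Atf4D/D hosts, Slc1a4 was at 49.0 CPM in tumour 3, on 2 UMIs, and at 8.33 to 10.7 CPM in the others. In TAM-like cells of Atf4D/D hosts, Slc1a4 was at 7.48 CPM in tumour 2, on 3 UMIs, and at 0 in the others, where a count of 0 allows up to 37.5 to 47.7 CPM, so these counts do not set tumour 2 apart. In melanoma-like cluster 0, Slc3a2 was at 718 CPM in Atf4wt/wt tumour 4, against 474 to 515 CPM in the others, and Slc1a5 at 129 CPM in Atf4D/D tumour 4, against 118 to 120 CPM.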

How the results depend on the processing

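No member passed the threshold in any genotype comparison under any alternative tried. Counts over all genes moved. DESeq2 called 121 genes in melanoma-like, 4 in CAF-like, 34 in TAM-like and 2 in all host cells and 4 for CAF-like minus melanoma-like cells, against 4, 2, 12, 0 and 0, and the absence of a filter on low counts gave 46, 96, 79, 20 and 65. Without TMM it was 9 in melanoma-like cells. With a mitochondrial limit of 5% it was 4 in CAF-like, 4 in TAM-like and 1 in all host cells and 2 for the subtraction, without marker-positive host cells 1, 2 and 1, with members kept in the clustering 0 in CAF-like cells, and with sex as labelled 0 in melanoma-like and 0 in CAF-like cells. A filter over all 16 sums, chosen after seeing the data, gave 46 for the subtraction. The cause was not tested. With the replicate number as a block it was 0 in melanoma-like, 0 in CAF-like and 20 in TAM-like cells. Same-numbered tumours did not deviate together (correlations of -0.40 to -0.06), so they share only a number. With single tumours left out, counts ranged from 0 to 21 in melanoma-like (21 without Atf4D/D tumour 3), 0 to 2 in CAF-like, 0 to 87 in TAM-like (87 without Atf4wt/wt tumour 3) and 0 to 1 in all host cells and from 0 to 2 for the subtraction.

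Estimates near 0 changed sign. Slc1a4 in melanoma-like cells was at 0.0247 without TMM and 0.0827 with the 5% limit, Slc38a2 in CAF-like cells at 0.0104 with that limit, Slc3a2 in TAM-like cells at -0.0344 with the block and -0.0684 with the 5% limit, and Slc3a2 in all host cells at 0.0641 without marker-positive cells. With single tumours left out, the ranges that crossed 0 were -0.527 to 0.0756 for Slc7a11, -0.218 to 0.107 for Slc1a5, -0.155 to 0.0913 for Slc7a5, -0.181 to 0.116 for Slc1a4 and -0.102 to 0.0998 for Atf4 in melanoma-like cells, -0.293 to 0.0649 for Slc1a5, -0.307 to 0.0685 for Slc7a5 and -0.159 to 0.0294 for Slc38a2 in CAF-like cells, -0.0883 to 0.178 for Slc3a2 in TAM-like and -0.146 to 0.0563 in all host cells, and -0.552 to 0.0336 for Asns in the subtraction. Asns stayed below 0, from -0.47 to -0.22 in melanoma-like, -0.90 to -0.49 in CAF-like and -0.95 to -0.58 in all host cells.

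Of the relations with Atf4, 2 passed without TMM (Slc1a4, and Slc38a2 with an adjusted p of 0.0441 by exact permutation), 0 with equal weight per cluster, and 0 to 1 with single tumours left out (adjusted p of Slc1a4 by exact permutation 0.0161 to 0.139).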

Other observations

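The 3 unnamed clusters of few UMIs per cell differed in the members. Cluster 9 (964 cells, led by Malat1, median mitochondrial share 0.508%) had the highest Slc3a2 (1070 ± 228 CPM, SD, n = 8), Slc38a2 (809 ± 91.3 CPM), Slc7a11 (242 ± 61.6 CPM) and Slc1a5 (231 ± 61.5 CPM) of the classes and clusters compared here. Its Slc7a5 (236 ± 81.9 CPM), Slc7a1 (209 ± 64.3 CPM) and Slc6a9 (33.6 ± 15.3 CPM) were also above cluster 0, whereas its Asns was at 256 ± 93.7 CPM and its Atf4 at 372 ± 61.3 CPM. The summed melanoma markers moved with these levels, at 167% to 308% of those in the melanoma-like cells of the same tumours. Scaled by them, 1814 Slc3a2 UMIs compare with 1771 expected, 1306 Slc38a2 UMIs with 1025, 438 Slc7a11 UMIs with 280 and 517 Asns UMIs with 1474. Cluster 13 (802 cells, 0.17%) had Asns at 347 ± 98.4 CPM but Slc38a2 at 80.6 ± 16.5 CPM and Slc7a11 at 12.0 ± 9.69 CPM. Cluster 8 (1021 cells) had Asns at 143 ± 48.9 CPM and Slc7a5 at 167 ± 36.2 CPM. Median UMIs per cell were 1317 in cluster 8, 1551 in cluster 9 and 1038 in cluster 13, against 9236 in cluster 0.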
